A study of Mus musculus with 2 samples.

Results

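Nnt and 9 other nuclear genes whose products supply or use NADPH for the defence of mitochondria against oxidants were followed in total RNA-seq of the mouse adrenal gland. The members were chosen by symbol (Nnt, Idh2, Me3, Txnrd2, Txn2, Prdx3, Prdx5, Sod2, Gsr and Glrx2), and no measured value enters the rule, although earlier results of these data were known when the list was drawn up. They correspond to 11 gene identifiers among the 55536 of the deposited gene tables, since Nnt has 2, and to 73 transcripts. Both samples were adrenal gland tissue of female B6CASTF1/J mice, the F1 cross of C57BL/6J and CAST/EiJ, aged 18 to 20 months, with 1 library per animal made from 300 ng of total RNA after reduction of ribosomal RNA. The labels number the animals 1 and 2 and name 2 females, but give both the same donor identifier, and 1 label field of animal 2 repeats the name of animal 1. Nothing in the labels sets the animals apart by treatment, genotype, sex or age, so there is 1 group of 2 and no comparison between conditions. With 2 libraries the smallest two-sided p of an exact sign-flip test is 0.5, and values are therefore given per animal and as mean ± SD without a test.

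Mitochondria of the adrenal cortex are exposed to hydrogen peroxide and superoxide because the P450 enzymes that cut and hydroxylate steroids sit in the inner membrane and draw electrons from NADPH, some of which leak to oxygen. Nicotinamide nucleotide transhydrogenase, encoded by Nnt, uses the proton gradient across that membrane to make NADPH from NADH. The NADPH is spent by a thioredoxin and a glutathione system, in which thioredoxin reductase reduces thioredoxin, which reduces peroxiredoxins, and glutathione reductase reduces glutathione, which serves glutaredoxins and glutathione peroxidases. Loss of NNT in humans causes familial glucocorticoid deficiency, and the C57BL/6J strain carries a deletion of several consecutive Nnt exons. One parent of the F1 animals is C57BL/6J. The mm10 assembly is itself built from C57BL/6J, so exons missing from that strain have no place in the annotation and were not analysed here. Every annotated Nnt transcript therefore lacks those exons. RNA that contains them can still give reads from exons shared with the annotated transcripts, and such reads would count towards Nnt. The part of such RNA in the Nnt level was not tested.

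The 3 exon junctions that set Nnt-201 apart from the other main Nnt transcripts are shown because the deposited quantifications gave Nnt-201, the transcript that skips exons, very different shares. All lie in coding sequence on the minus strand of chromosome 13 (mm10, GENCODE M21) and are read 5′ to 3′ in the transcript, with the 12 bases on each side of the junction in capitals. In Nnt-202, the transcript with 17 exons, exon 7 (chr13:119381676-119381863) runs into exon 8 (chr13:119374629-119374774), and exon 9 (chr13:119372396-119372591) into exon 10 (chr13:119369912-119370145). In Nnt-201, exons 8 and 9 of Nnt-202 are left out and the flanking exons are joined.
Nnt-202 exon 7 to 8: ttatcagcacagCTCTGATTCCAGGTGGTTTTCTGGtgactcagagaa
Nnt-202 exon 9 to 10: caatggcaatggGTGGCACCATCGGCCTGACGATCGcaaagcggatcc
Nnt-201 exon 7 to 8: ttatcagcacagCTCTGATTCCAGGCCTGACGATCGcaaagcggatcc
The first pair of sequences occurs in 3 Nnt transcripts (Nnt-202, Nnt-203 and Nnt-206) and the third in Nnt-201 alone, so they do not tell Nnt-202 and Nnt-206 apart. The exons left out measure 146 and 196 bases, together 342 bases or 114 codons, so the reading frame continues. Over the whole of Nnt-201, 28 of its 3092 stretches of 31 bases occur in no other annotated transcript.

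Each library had a gene table and a transcript table from one quantification, called the first tables, and a second transcript table from another, here summed by gene. Levels are in TPM, a relative transcript abundance corrected for transcript length. Expected counts (estimated reads per gene) summed to 35769717 in animal 1 and 35135703 in animal 2. The tissue label was checked against marker genes. All 7 markers of the steroid-making cortex and all 5 of the medulla had at least 1 TPM in both libraries, and none of 3 kidney markers did, which summed to 0.93 TPM in animal 1 and 0.90 in animal 2 with Kap listed at 0 in animal 2. Markers of tissues around the gland differed between the animals. All 6 adipocyte genes were higher in animal 1 and summed to 3268 TPM in animal 1 and 2089 in animal 2, and 4 striated muscle genes to 133 and 0.34 TPM, with Ckm listed at 0 in animal 2. The 2 X-zone markers (Akr1c18 and Pik3c2g) summed to 118 TPM in animal 1 and 1047 in animal 2, the 7 cortex markers to 15669 and 20107 TPM, and the medulla markers to 1796 and 1517 TPM. The cortex genes were split, however, with 3 of the 7 (Cyp11b1, Cyp11a1 and Mc2r) higher in animal 1. The 3 liver markers summed to 13.5 and 4.54 TPM and the 3 macrophage markers to 22.7 and 30.6 TPM. In whole tissue, fewer cells of a type and less RNA per cell cannot be told apart.

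The 10 genes spanned a wide range of levels, and by TPM over all transcripts the enzymes that remove peroxide and superoxide stood above the enzymes that supply NADPH. By expected counts, not corrected for length, Prdx5 (2289 in animal 1 and 2008 in animal 2) lay below Nnt (5383 and 5481). By TPM of coding transcripts in the first tables Sod2 (18.6 and 15.9) lay below Nnt (42.5 and 48.0). In the second table Sod2 (126 and 96.9) lay above Nnt (76.3 and 78.7) by that measure, mainly through the short transcript Sod2-205. Prdx3 led with a mean of 274 ± 45.6 TPM (SD, n = 2), followed by Txn2, Sod2 and Prdx5, and Me3 came last with 5.41 ± 0.714 TPM. The order was Prdx3, Txn2, Sod2, Prdx5, Nnt, Idh2, Txnrd2, Glrx2, Gsr and Me3. For each pair of neighbours in it, both animals' values of the higher gene lay above both values of the lower one. The deposited TPM intervals of Txnrd2 and Glrx2 overlapped, however, and so did those of Glrx2 and Gsr, and the second table placed Sod2 above Txn2. The interval of Idh2 in animal 2 (33.3 to 37.1 TPM) also overlapped that of Txnrd2 in animal 1 (31.2 to 35.3 TPM). No interval exists for the Nnt sum, but that of the Nnt identifier with more counts overlapped that of Idh2 in both animals. Together the members held 912 TPM in animal 1 and 819 in animal 2. Among the 11552 protein-coding genes detected (at least 1 TPM in both libraries, median 9.82 TPM), Prdx3 stood above 98.8%, Nnt above 89.5% and Me3 above 31.8%.

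**Figure D1:**
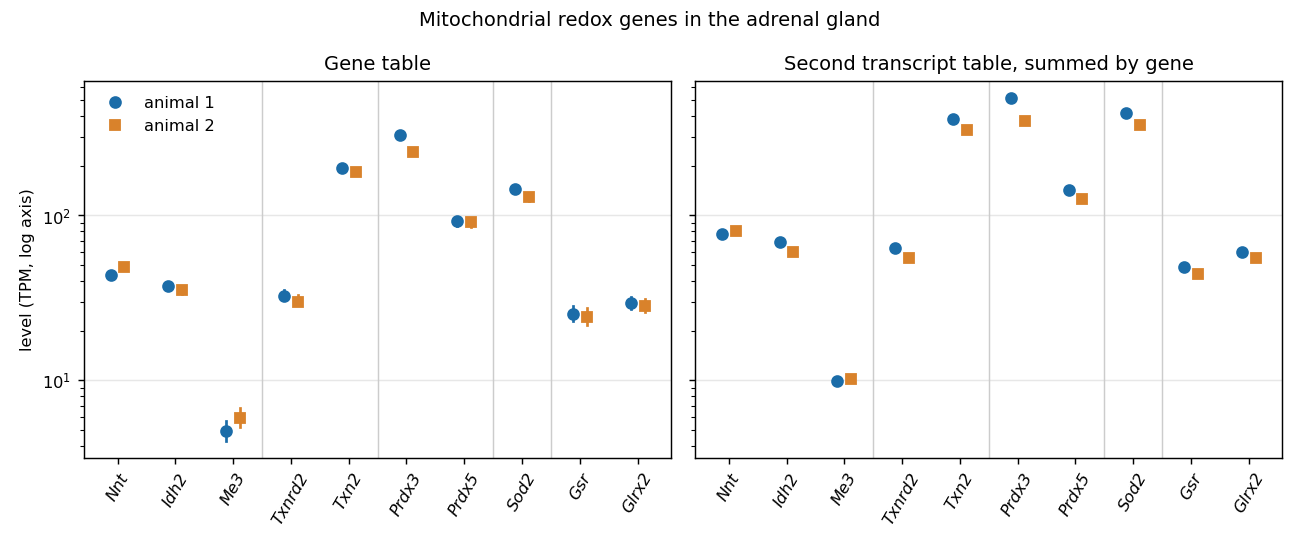
Level of each member in TPM on a log axis, in the gene table (left panel, bars are the deposited intervals where a gene has 1 identifier) and in the second transcript table summed by gene (right panel), with 1 point per animal and grey lines between functional groups. Prdx3 has the highest level in both panels (307 and 242 TPM in the gene table) and Me3 the lowest (4.90 and 5.91 TPM).

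NADPH supply is represented by Nnt, Idh2 and Me3. Nnt had 43.2 TPM in animal 1 and 48.7 in animal 2, the sum over its 2 identifiers, from 5383 and 5481 expected counts. Idh2, the NADP-dependent isocitrate dehydrogenase of the matrix (chr7:80094846-80115392), had 37.2 and 35.1 TPM from 2352 and 1982 expected counts. Me3, the NADP-dependent mitochondrial malic enzyme (chr7:89632392-89854359), had 4.90 and 5.91 TPM from 270 and 303 expected counts. Nnt thus exceeded Idh2 in both animals, though by little. Its log2 ratio to Idh2 was 0.34 ± 0.18 and its log2 ratio to Me3 3.09 ± 0.07 (SD, n = 2), so that Nnt stood 8.82-fold above Me3 in animal 1 and 8.24-fold in animal 2. Idh2 over Me3 was 2.75 ± 0.25 on the same scale.

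The 2 Nnt identifiers cover nearly the same stretch of chromosome 13. ENSMUSG00000025453.18 (chr13:119335448-119408997, minus strand, 5 transcripts) had 43.2 TPM in animal 1 and 40.6 in animal 2. ENSMUSG00000116207.1 (chr13:119335528-119408952, 1 transcript, Nnt-206) was listed at 0.00 TPM in animal 1 and 8.11 in animal 2, from 0.25 and 932.62 expected counts. Its deposited intervals, 0.00627 to 6.38 TPM in animal 1 and 0.372 to 16.5 TPM in animal 2, were wide and overlapped. In the second table the order of the identifiers was the other way round, with 34.2 and 28.0 TPM for the identifier with 5 transcripts and 43.4 and 52.0 TPM for Nnt-206. Nnt-206 took 0% and 16.6% of Nnt TPM in the first tables, but 55.9% and 65.0% in the second.

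The annotated sequences leave little to tell these transcripts apart. Nnt-206 lies wholly within Nnt-202: it shares all 16 introns and the same coding sequence of 2505 bases, and is shorter by 45 bases at the 5′ end and 80 at the 3′ end. Neither of them has a stretch of 31 bases of its own. The sum of the 2 identifiers is therefore the Nnt level used here, and a value of either identifier alone is uncertain. Nnt-201, which leaves out the exons whose junctions are printed above, had 16.9 TPM in animal 1 and 21.4 in animal 2 in the first tables. That was 39.2% and 44.0% of Nnt TPM, against 1.48% and 2.90% in the second table. Transcripts annotated as protein-coding made up at least 98.2% of Nnt TPM in both animals and both quantifications.

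**Figure D2:**
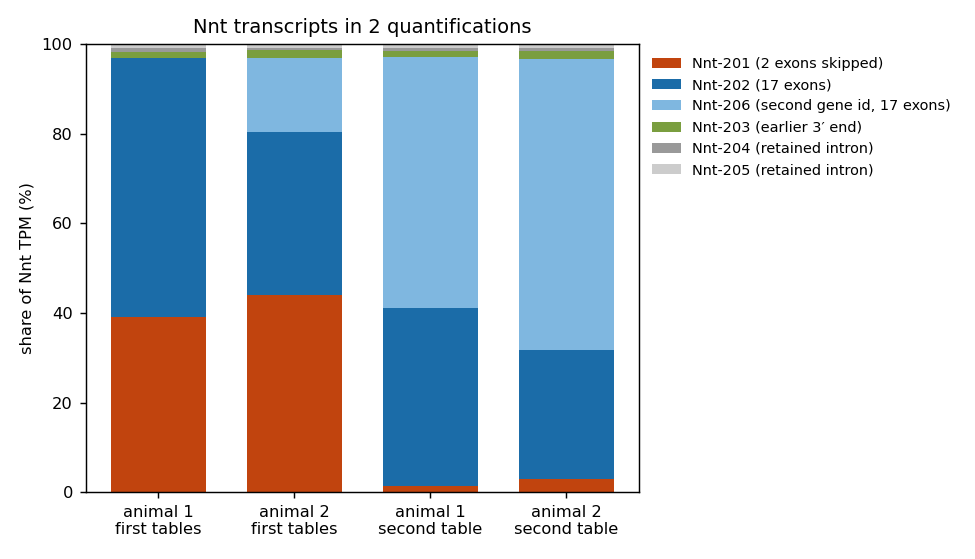
Share of Nnt TPM, in percent, on each of its 6 annotated transcripts, as stacked bars for animals 1 and 2 in the first tables and in the second table. Nnt-201, without 2 exons, takes 39.2% and 44.0% in the first tables and 1.48% and 2.90% in the second, where Nnt-206 takes the most.

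Idh2 and Me3 differed in what their reads were assigned to. For Idh2, the protein-coding transcript Idh2-201 carried 36.2 TPM in animal 1 and 32.9 in animal 2, which was 97.2% and 93.7% of the gene. For Me3, the only protein-coding transcript, Me3-202 with 604 codons, carried 0.07 and 0.09 TPM, or 1.43% and 1.52%. Its 12.6 and 14.59 expected counts were 4.67% of Me3 counts in animal 1 (Wilson 95% interval 2.84 to 8.06%) and 4.82% in animal 2 (3.02 to 8.01%), intervals that cover counting error only. The level of Me3 came instead from Me3-201, annotated as a processed transcript (2.59 and 2.88 TPM), and from Me3-203, which retains an intron (1.92 and 2.60 TPM). Of the bases of Me3-201, 94.8% lie in exons of Me3-202, where they cover 55.4% of its coding sequence. The second table gave Me3-202 a larger share, 4.65% and 6.93%, and still the smallest coding share of the 10 genes.

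The thioredoxin system was led by its substrate carrier. Txn2, the mitochondrial thioredoxin (chr15:77915047-77929006), had 196 TPM in animal 1 and 185 in animal 2. Txnrd2, the selenoprotein that reduces it (chr16:18426384-18479073), had 32.5 and 29.9 TPM. Both genes were held mainly by 1 coding transcript, Txn2-201 with 187 and 169 TPM and Txnrd2-203 with 25.2 and 18.6 TPM. The log2 ratio of Txn2 to Txnrd2 was 2.61 ± 0.03 (SD, n = 2), so that Txn2 was 6.01-fold above its reductase in animal 1 and 6.18-fold in animal 2. In the second table this log2 ratio was 2.59.

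Prdx3 and Prdx5 encode the peroxiredoxins of mitochondria, which reduce peroxide with electrons from thioredoxin. Prdx3, which resides in mitochondria (chr19:60864051-60874556), had 307 TPM in animal 1 and 242 in animal 2 from 16432 and 11848 expected counts. It has a single annotated transcript, and none of its stretches of 31 bases occurs under another gene symbol. Prdx5, which is also found in peroxisomes and cytosol (chr19:6906697-6910106), had 93.1 and 91.5 TPM. Prdx3 over Prdx5 was 1.56 ± 0.22 on the log2 scale, and Prdx3 over Txn2 was 0.52 ± 0.18 (SD, n = 2). Prdx3 was therefore the highest member in both animals, and the one whose TPM differed most between them by ratio.

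For Prdx5 the 2 quantifications gave nearly opposite transcript compositions. The junctions that set its transcripts apart are shown for that reason, again from the minus strand, here of chromosome 19, with the 12 bases on each side in capitals. Prdx5-204 leaves out exon 3 of Prdx5-201 (chr19:6907542-6907673, 132 bases or 44 codons), and exon 5 of Prdx5-205 starts 7 bases later than that of Prdx5-201 (chr19:6907066-6907127).
Prdx5-201 exon 2 to 3: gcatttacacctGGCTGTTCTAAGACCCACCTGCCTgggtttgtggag
Prdx5-204 exon 2 to 3: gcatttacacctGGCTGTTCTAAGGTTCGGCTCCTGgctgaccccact
Prdx5-201 exon 4 to 5: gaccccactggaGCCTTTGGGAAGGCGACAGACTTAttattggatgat
Prdx5-205 exon 4 to 5: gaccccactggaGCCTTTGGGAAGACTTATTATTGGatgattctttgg
In the first tables Prdx5-205 held 46.9% of Prdx5 TPM in animal 1 and 44.6% in animal 2, Prdx5-204 24.7% and 28.5%, and the 210-codon transcript Prdx5-201 13.9% and 12.6%. In the second table Prdx5-201 held 53.2% and 52.9% and Prdx5-203 45.8% and 46.2%, while Prdx5-205 held 0.402% and 0.384% and Prdx5-204 was listed at 0 in both. The share of Prdx5 TPM that sat on other transcripts in the second table was 71.2% in animal 1 and 72.8% in animal 2. Over 10552 protein-coding genes with more than 1 transcript, the median of that share was 20.9%, and 8.03% of them reached at least 50% in both libraries, which 1 of 9 members, Prdx5, also did. Within each quantification the animals were close, with 3.88% of Prdx5 TPM placed differently between them in the first tables and 0.398% in the second. Trmt112 overlaps Prdx5 on the opposite strand and had 28.7 and 33.3 TPM. The library kit keeps strand, but no source used here says whether the counting used it.

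Sod2, the manganese superoxide dismutase of the matrix (chr17:13006846-13040063), had 145 TPM in animal 1 and 129 in animal 2. The log2 ratio of Sod2 to Prdx3, which handles the peroxide that dismutation yields, was -0.99 ± 0.13 (SD, n = 2) in the gene table. In the second table it was -0.30 in animal 1 and -0.084 in animal 2, so the gap between the genes was much smaller there. Most of the Sod2 TPM was assigned to transcripts without an annotated coding sequence. The processed transcript Sod2-207 had 82.0 and 77.8 TPM and Sod2-204, with a retained intron, 43.0 and 34.4 TPM, against 18.6 and 15.9 TPM for the coding transcript Sod2-201, which is 5861 bases long. Coding transcripts thus made up 12.9% and 12.3% of Sod2 TPM in the first tables. By expected counts, not corrected for length, the long Sod2-201 held the most, 49.2% in animal 1 (Wilson 95% interval 48.1 to 50.2%) and 47.4% in animal 2 (46.2 to 48.6%). In the second table the coding transcripts made up 30.1% and 27.4% of Sod2 TPM, mainly through the short Sod2-205, which had 90.5 and 68.6 TPM there and was listed at 0 in the first tables. Its annotated coding sequence has 50 codons, against 222 in Sod2-201. Sod2-201 itself held 8.49% and 8.01% of Sod2 TPM in the second table. Of the bases of Sod2-207, 95.9% lie in exons of Sod2-201, where they cover 96.5% of its coding sequence. Of all 31-base stretches of Sod2, 26.6% also occur under other gene symbols, but mainly those of Sod2-202, a transcript with 0.840% and 0.738% of Sod2 counts. In the transcripts that carried the level the share was 3.62% for Sod2-201, 0.651% for Sod2-204 and 0% for Sod2-207. It was 8.55% for Sod2-205, which held 21.7% and 19.4% of Sod2 TPM in the second table.

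Coding shares below 50% in both libraries were found by TPM for 2 of the 10 members, Me3 and Sod2, in either quantification. Among all 11552 detected protein-coding genes this held for 6.15% in the first tables and 8.02% in the second. Every other member except Gsr had a coding share of at least 81.1% in each library and table.

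**Figure D3:**
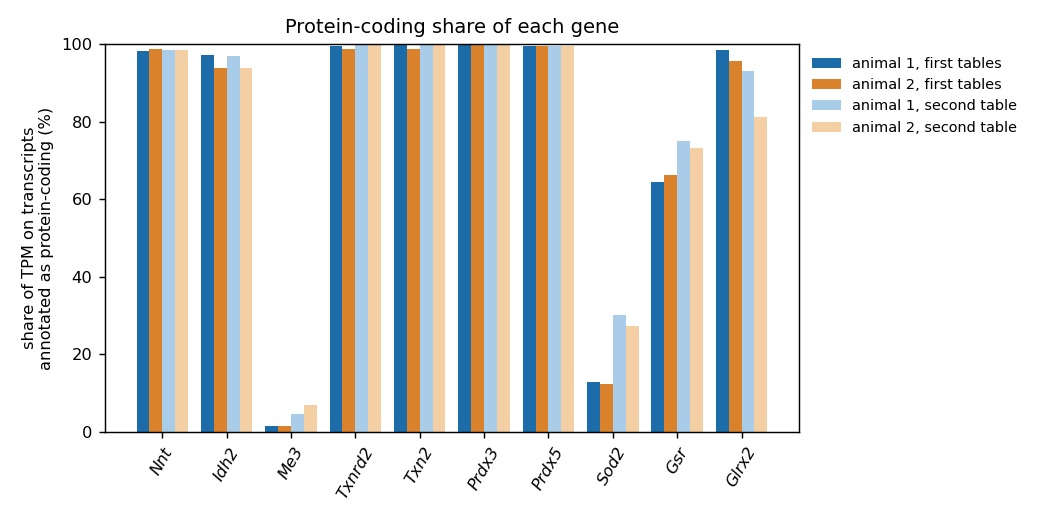
Share of each member's TPM, in percent, on transcripts annotated as protein-coding, as bars for animals 1 and 2 in the first tables and in the second table. Me3 (1.43% and 1.52% in the first tables) and Sod2 (12.9% and 12.3%) stand far below the rest, and Gsr (64.5% and 66.3%) lies between.

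The glutathione system was represented by Gsr, the reductase that serves mitochondria and cytosol from 1 gene (chr8:33652523-33698163), and Glrx2, the mitochondrial glutaredoxin (chr1:143716338-143749676). Gsr had 25.2 TPM in animal 1 and 24.0 in animal 2, and Glrx2 had 29.2 and 28.1 TPM. The 2 genes were thus close, with a log2 ratio of Gsr to Glrx2 of -0.22 ± 0.01 (SD, n = 2). By expected counts, which favour the longer Gsr transcript, the log2 ratio was 0.91. The coding transcript Gsr-201 held 64.5% and 66.3% of Gsr TPM and the processed transcript Gsr-202 8.03 and 7.31 TPM. A small nucleolar RNA gene, Gm24727, overlaps Gsr on the same strand and had 46.9 and 76.6 TPM. Its part in the level of Gsr was not tested.

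Glrx2 is annotated with 5 coding transcripts among its 13. The leading one in the first tables was Glrx2-202, with 24.7 TPM in animal 1 and 23.0 in animal 2, followed by Glrx2-204 with 3.67 and 2.98 TPM. The second table placed 23.7 and 20.9 TPM on Glrx2-206, which the first tables listed at 0. All 3 of these transcripts have a coding sequence of 123 codons. Glrx2-210, with 156 codons, had 0 and 0.05 TPM in the first tables and 2.25 and 2.96 TPM in the second.

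Set against their cytosolic counterparts in the same library, the members did not share a direction. Of 8 ratios of a mitochondrial gene over its counterpart, 3 were above 0 on the log2 scale in both animals, 4 were below 0 in both, and 1, Txnrd2 over Txnrd1, differed in sign between the animals. Glrx2 exceeded Glrx, the cytosolic glutaredoxin, by a log2 ratio of 1.87 ± 0.18 (SD, n = 2), and Txn2 exceeded cytosolic Txn1 by 1.09 ± 0.11, or 2.01-fold in animal 1 and 2.25-fold in animal 2. Prdx3 over Prdx1, a peroxiredoxin of the cytosol, had a log2 ratio of 0.36 ± 0.28 in the gene table and 0.01 in the second table, where animal 2 had -0.19. Summed over their transcripts, Txn2 and Glrx2 were therefore above Txn1 and Glrx in every library and table. For Glrx2 the sum holds coding sequences of different lengths, and which of them give a mitochondrial protein was not tested. Taken singly in the first tables, the 123-codon Glrx2-202 (24.7 and 23.0 TPM) lay above Glrx (8.71 and 7.05 TPM). The 156-codon Glrx2-210 (0 and 0.05 TPM) lay below it.

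The opposite held for superoxide dismutase and for the dehydrogenases that make NADPH, again as log2 ratios. Sod2 over Sod1, the copper and zinc enzyme of the cytosol, was -1.77 ± 0.19, as Sod1 had 450.0 TPM in animal 1 and 484 in animal 2. By expected counts, not corrected for length, this log2 ratio was -0.36. Idh2 over Idh1 was -2.21 ± 0.06, with Idh1 at 167 TPM in both animals. The widest gap of the 8 was that of the malic enzymes: Me3 over Me1 was -6.21 ± 0.13, since cytosolic Me1 had 386 and 411 TPM, which was 78.7-fold above Me3 in animal 1 and 69.5-fold in animal 2. Prdx5 over Prdx6 was -0.92 ± 0.10 on the log2 scale and -1.51 in the second table, but Prdx6 is a peroxiredoxin of several compartments, mitochondria included, and so not a purely cytosolic counterpart. Txnrd2 over Txnrd1, the cytosolic thioredoxin reductase, was 0.24 in animal 1 and -0.53 in animal 2 by TPM, but below 0 in both by expected counts (-0.66 and -1.51). That difference came with Txnrd1, which had 27.6 and 43.0 TPM, while Txnrd2 had 32.5 and 29.9 TPM.

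**Figure D4:**
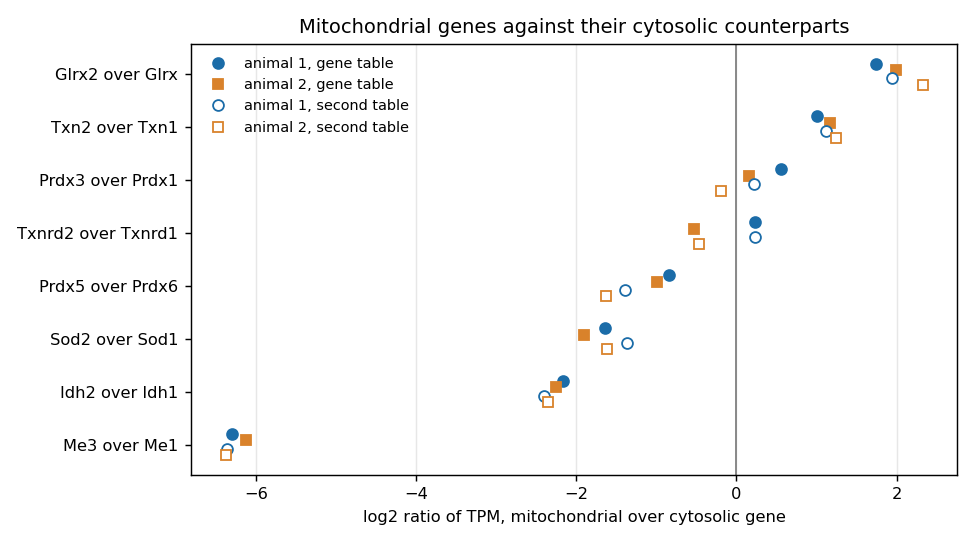
Log2 ratio of TPM of each mitochondrial gene over its cytosolic counterpart, with filled symbols for the gene table and open symbols for the second table, 1 symbol per animal, and a line at 0 where both genes have the same level. Glrx2 over Glrx (1.87 ± 0.18) and Txn2 over Txn1 (1.09 ± 0.11) lie right of the line and Me3 over Me1 (-6.21 ± 0.13) farthest left.

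Other genes of these pathways gave the surroundings of the members. The list of genes around mitochondrial NADPH supply held 11 genes. It was led by genes that do not make NADPH themselves, the subunits of the NAD-dependent isocitrate dehydrogenase, which makes NADH, namely Idh3g (141 TPM in animal 1, 149 in animal 2), Idh3b (124 and 123 TPM) and Idh3a (123 and 81.2 TPM), and the citrate carrier Slc25a1 (86.0 and 111 TPM). Of the 6 genes of cytosolic NADPH supply, Me1 and Idh1 led, followed by Pgd of the pentose phosphate pathway (104 and 99.5 TPM) and the NAD kinase Nadk (82.4 and 94.6 TPM). Among 10 partners in mitochondrial thiol and peroxide handling, the glutathione peroxidases Gpx4 (298 and 329 TPM) and Gpx1 (239 and 226 TPM) were near Prdx3 in level, followed by Prdx6 (168 and 182 TPM) and the thioredoxin-binding protein Txnip (135 and 163 TPM). Both glutathione peroxidases were above Txn2 and Sod2 in both animals. The values of this list are levels of whole genes, and the part of their products in mitochondria was not measured. The 14 genes of cytosolic thiol and superoxide handling were led by Sod1, Prdx2 (205 and 230 TPM), Prdx1 (208 and 217 TPM) and Cat, the catalase of peroxisomes (152 and 122 TPM). Of the 5 steroid-making genes that spend mitochondrial NADPH, 4 stood above every member in both animals. Cyp11b1 had 2622 and 2285 TPM, Cyp11a1 2335 and 2034 TPM, Fdxr, which passes the electrons of NADPH to ferredoxin, 404 and 405 TPM, and the ferredoxin Fdx1 378 and 1004 TPM. The exception was Cyp11b2, the aldosterone synthase, with 200.4 and 166 TPM.

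Summed by gene, the members differed between the animals by at most 1.31-fold after TMM scaling, which sets library sizes so that most genes do not differ. To be called at least 2-fold apart, a gene needed that ratio of scaled counts in either direction, a mean count of 50 or more and deposited TPM intervals without overlap. None of the 11 identifiers met these conditions, against 3.46% of 13570 genes. With this scaling the largest difference was that of Prdx3, with 307 TPM in animal 1 and 242 in animal 2, a log2 ratio of animal 1 over animal 2 of 0.39 (95% counting interval 0.35 to 0.42) or 1.31-fold. Me3 followed with a ratio of -0.25, Sod2 with 0.23 and Txnrd2 with 0.21. Nnt had -0.11 (-0.16 to -0.05), and Me3 and Nnt were the 2 members with higher counts in animal 2. These intervals hold counting error only, and 1 library per animal does not separate the animal from the handling of its tissue.

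The direction of these small differences depended on the scaling for several members. After TMM scaling 9 of 11 identifiers were higher in animal 1, against 51.7% of 13570 genes, and with DESeq2 size factors 9 were, against 53.5%. The 9 include 1 Nnt identifier, and with the Nnt identifiers summed 8 of the 10 members were higher in animal 1 under either scaling. Scaling by the totals of the ERCC spike-ins, synthetic RNAs added to each sample, shifted every log2 ratio by -0.22, and then 2 of 11 were higher in animal 1, against 26.6%. Under spike-in scaling Prdx3 kept a ratio of 0.17 and Sod2 had 0.0038, while Nnt had -0.33 and Me3 -0.47, then the largest difference. The median over the members was 0.13 with TMM and -0.09 with spike-in scaling, against 0.01 and -0.21 over all genes. Deposited TPM intervals did not overlap, with animal 1 higher, for 3 identifiers (Prdx3, Txn2 and Sod2), against 12.3% of genes, and with animal 2 higher for none, against 20.7%. Beside these ratios, the summed markers of adipocytes, muscle, liver and medulla were higher in animal 1, and those of the cortex, X-zone and macrophages higher in animal 2. Against their sums, 3 of the 7 cortex genes and, by TPM, the macrophage gene Adgre1 (2.74 and 1.80 TPM) were higher in animal 1. The part of these markers' cell types in the members' ratios was not tested.

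**Figure D5:**
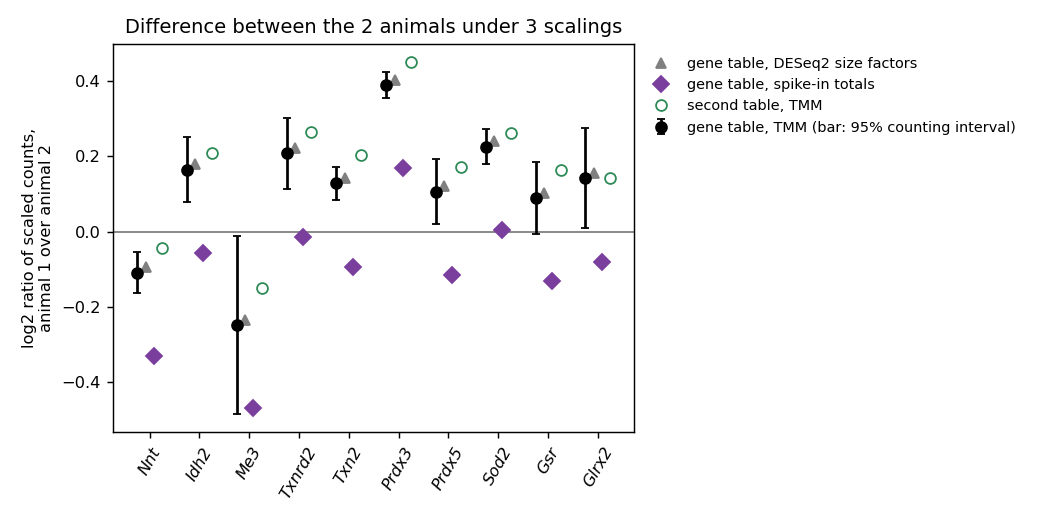
Log2 ratio of scaled counts, animal 1 over animal 2, for each member: gene table with TMM (black, bars are 95% counting intervals), DESeq2 size factors (grey) and spike-in totals (purple), and second table with TMM (green). Prdx3 lies above 0 under all of them (0.39 with TMM, 0.17 with spike-in totals) and Nnt and Me3 lie below 0.

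In the pathway lists, the calls between the animals were also few. No gene around mitochondrial NADPH supply or of cytosolic NADPH supply and none of the mitochondrial thiol partners was called at least 2-fold apart, with median log2 ratios of animal 1 over animal 2 of -0.03, 0.08 and -0.05 beside 0.01 over all genes. Aldh1l2 of the first of these lists was below the mean count of 50. Of the 14 cytosolic thiol genes 1 was called, Srxn1, the sulfiredoxin that repairs overoxidized peroxiredoxins, with 60.2 TPM in animal 1 and 165 in animal 2, 2.69-fold higher in animal 2. Of the 5 steroid-making users of NADPH 1 was called, Fdx1, 2.71-fold higher in animal 2. The median log2 ratios of these 2 lists were 0.01 and 0.24, and the share called over all genes was the 3.46% given above.

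Between the quantifications most member identifiers shifted about as much as other genes. The second table gave higher TPM for most genes, and the median log2 ratio of the first over the second table, with 1 added to each TPM, was -0.77 over all genes and -0.85 over the members. At least 2-fold apart in both libraries were 2 of 11 identifiers, Sod2 and ENSMUSG00000116207.1 of Nnt, against 19.7% of 14264 genes. Relative to the median of all genes, a centring chosen after the shift had been seen, 2 identifiers were 2-fold apart, both of Nnt, against 5.10% of genes. The sum of the Nnt identifiers had 77.6 TPM in animal 1 and 80.0 in animal 2 in the second table, a log2 ratio of the first over the second of -0.83 in animal 1 and -0.70 in animal 2, close to the median. The difference over Nnt thus lay in how TPM was divided among its transcripts.

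The core letters of the antioxidant response element, TGACNNNGC, were searched on both strands in RefSeq promoter windows of 300 bases (GRCm38.p6). Of the 10 members 8 had at least 1 window (11 windows together), while Nnt and Gsr had none and were not searched. None of the 11 windows held the motif, against 12.4% of 32851 windows and at least 1 window for 14.0% of 27025 genes. This says only that these letters were not in these windows. Among 16130 other protein-coding genes with a value in both libraries, those with levels most like Nnt included Becn1 (43.0 TPM in animal 1 and 48.7 in animal 2) and Zwint (44.0 and 48.7 TPM). Their summed distances to Nnt on the log2 TPM scale over the 2 libraries were 0.00866 for Becn1 and 0.0258 for Zwint, which describes 2 samples of 1 group.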

How the data were processed

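Per the file headers, the deposited gene and transcript tables hold expected counts, TPM, the percent of each gene's TPM on a transcript, and bounds of a TPM interval, which are treated as a score since no source used here states their level. The authors' other transcript table, called the second, has estimated counts and TPM. Per the deposited file descriptions, the first tables come from an alignment to the transcriptome and the second from read files and an index, both with mm10 and GENCODE M21. Column names are those that RSEM and kallisto write; which versions were run was not given in the sources used here. For 8 of 11 member identifiers in animal 1 and 10 in animal 2 the TPM lay inside its own interval.

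Spike-ins (96 entries, 0.886% of expected counts in animal 1 and 0.730% in animal 2) and 26248 entries named by number were left out. Estimated counts of the second table summed to 34601631 and 34894349. Expected counts were rounded, then TMM factors were computed with edgeR 4.0.16 in R 4.3.3 and tested on simulated data, with 0.5 added for log2 ratios. DESeq2 1.42.0 gave size factors only. Transcript structure and 31-base stretches were taken from GENCODE M21 with Python 3.11.15 and pandas 2.3.3, intervals from scipy 1.17.1 and figures from matplotlib 3.10.9. Counting intervals cover counting error alone, as reads carry no molecular identifiers. Named are all members, the genes of the ratios, up to 4 genes of each pathway list by mean TPM (plus any under 0.1 TPM in both libraries), and genes among the 3 most like Nnt, of which 1 is not reported here. Markers, overlapping genes, Srxn1, Aldh1l2 and Cyp11b2 are named in addition, the last 3 after their values were seen. The members and lists were chosen with earlier results of these data known. Alternatives were the second table, posterior TPM, TPM over nuclear protein-coding genes, counts without length correction, other pseudocounts, filters and scalings, and leaving out either animal.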

Additional observations from a re-analysis of the deposited data

How the results depend on the processing

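The level of Nnt (46.0 TPM) was 78.8 TPM in the second table, 152 TPM over nuclear protein-coding genes alone and 41.9 TPM for the identifier with more counts, and 43.2 to 48.7 TPM without either animal. The members' sum (866 TPM) was 1637 TPM in the second table and 2871 TPM over nuclear protein-coding genes, and 819 to 912 TPM without either animal. The share of Nnt-206 (8.32%) was 60.4% in the second table and 0 to 16.6% without either animal. Without the interval rule, 1 identifier was 2-fold apart between the animals, ENSMUSG00000116207.1, in place of 0. Of the 8 counterpart ratios 3 had a mean above 0, and 3 to 4 without either animal. Of the 8 ratios between members 6 were above 0, and 7 by counts without length correction, where Gsr over Glrx2 reversed to 0.91. With spike-in totals the log2 ratio between the animals reversed to -0.057 for Idh2, -0.013 for Txnrd2, -0.094 for Txn2, -0.12 for Prdx5 and -0.080 for Glrx2. Gsr, whose counting interval included 0, also changed sign, to -0.13. The count of identifiers 2-fold apart between the quantifications (2) was 3 without animal 2, when Glrx2 joined. For 37 other values, 205 alternatives gave 144 values within the spread, 55 outside it and 6 reversed, which are Gsr over Glrx2 and the 5 from Idh2 to Glrx2. Of the 55, 23 came from the second table and 13 from counts without length correction. In the second table Sod2 over Prdx3 was -0.19 (-0.99 in the gene table) and Prdx5 over Prdx6 -1.51 (-0.92). By counts without length correction Sod2 over Sod1 was -0.36, Txnrd2 over Txnrd1 -1.08, Prdx5 over Prdx6 -1.84, Me3 over Me1 -7.27, Nnt over Idh2 1.33, Nnt over Me3 4.25 and Prdx3 over Prdx5 2.70. The causes were not tested. No paired analysis was possible because there is 1 group.

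With 1 library per animal the SD rests on 2 values and includes handling and library preparation. Absolute TPM depends on the quantification and on what the TPM total includes, and some ratios within a library also depend on the quantification and on length correction. Me3-202 rests on 12.6 and 14.59 expected counts. Shares of transcripts without a 31-base stretch of their own, such as Nnt-202, Nnt-206 and Glrx2-210, are uncertain. So are those of Nnt-201 and of the Prdx5 transcripts, which differed widely between the quantifications.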
